A study of Mus musculus with 8 samples.

Results

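The genes described here are those of Wnt signaling in the embryonic mouse ventricle, compared between wild-type (WT) embryos and embryos in which the neuregulin gene *Nrg1* was deleted in the endothelial lineage. They were chosen by symbol: the Wnt ligands (19 genes), the Frizzled receptors (10), the R-spondins (4), the receptor genes *Lrp5*, *Lrp6* and *Lgr4*, the secreted inhibitors of the Dkk and Sfrp families (8) and a group of 9 canonical target and feedback genes, *Axin2*, *Lef1*, *Tcf7*, *Nkd1*, *Nkd2*, *Notum*, *Znrf3*, *Rnf43* and *Lgr5*. These 53 genes stand among 53465 in the table. The ligands, Frizzled receptors, R-spondins and *Lrp5*, *Lrp6* and *Lgr4*, 36 genes in all, are called input genes, and were set against the canonical targets.

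The study sequenced polyadenylated RNA of heart ventricles at embryonic day 9.5 (E9.5) from 4 WT samples and 4 mutant samples of the genotype Nrg-1flox;Tie2-Cre, in which a floxed *Nrg1* allele was combined with the endothelial driver line Tie2-Cre, which is also known to be active in blood cells. Which alleles the WT embryos carried, and how many embryos or litters each sample held, were not given in the sources used here, so the p-values measure the spread between these samples, which may be partly technical. Levels are given as CPM, counts scaled to a common library size with edgeR's TMM factors. In such bulk samples, fewer cells of a type and less RNA per cell cannot be told apart.

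Wnt ligands are secreted lipid-modified proteins that bind a Frizzled receptor together with the co-receptor Lrp5 or Lrp6, which stops the breakdown of β-catenin and lets it act with the DNA-binding proteins of the Tcf/Lef family. R-spondins strengthen the signal by binding Lgr receptors and removing the ubiquitin ligases Znrf3 and Rnf43, which otherwise clear Frizzled from the membrane. Several target genes, among them *Axin2*, encode inhibitors and so form a negative feedback. In the early heart, canonical signaling sustains progenitors of the second heart field, the source of the outflow tract, and ligands such as Wnt5a and Wnt11 act through a separate, β-catenin-independent branch.

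Total counts ranged from 11852372 to 14360323 in WT and from 12430368 to 14223860 in the mutants. *Nrg1* itself, counted over the whole gene, had 156, 131, 121 and 173 counts in the WT samples and 61, 59, 71 and 72 in the mutants (log2 fold change -1.07, standard error 0.14, edgeR adjusted p = 0.00268). The 11 cardiomyocyte markers were abundant in every sample. Their summed level was 36322 to 38062 CPM in WT and 34291 to 36904 CPM in the mutants. At an edgeR adjusted p under 0.05, 0 of the 11 passed, where 8.62% of all genes tested did. The log2 fold change was negative in 8 and positive in 3. *Myh6* was lower in every mutant than in every WT sample without passing (log2 fold change -0.25, edgeR adjusted p = 0.0796). Mutant replicate 1 stood apart: its count differences from the other mutants exceeded sampling noise by 31.1 to 53.7 times (chi-square over degrees of freedom), against 3.78 to 14.7 for all other pairs within a genotype. Hemoglobin genes took 6.26%, 1.93%, 3.80% and 3.89% of counts in mutant replicates 1 to 4 and 0.671% to 0.799% in WT.

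Of the 53 genes, 36 passed the filter on low counts and were tested. At a false discovery rate (FDR) of 0.05, 3 of them were higher in the mutants and 5 lower, where 5.11% of all 14451 genes tested were higher and 3.50% lower (8.62% in either direction). The genes that fell were the ligands *Wnt4* and *Wnt11*, the R-spondin *Rspo3*, the receptor *Fzd3* and the target *Lef1*. Those that rose were the receptor *Fzd5*, the inhibitor family member *Dkk3* and the target *Rnf43*. Because *Rnf43* passed the filter through its level in the mutants alone, it is left out when the genes that rose are read against the share of all genes, which leaves 2. The median log2 fold change of the 36 genes was -0.01, and that of all genes tested was -0.0014. Without mutant replicate 1, 5 genes were higher and 7 lower, against 9.35% and 7.89% of 14630 genes (17.2% in either direction), and the 5 were 4 without *Rnf43*. Without mutant replicate 4 or any 1 WT replicate, *Wnt4*, *Rspo3* and *Lef1* were lower, and without WT replicate 1, 3 or 4, *Rnf43* was the 1 gene higher, which leaves 0. In these 5 fits the share of all genes that changed was 3.48% to 4.81%.

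**Figure D1:**
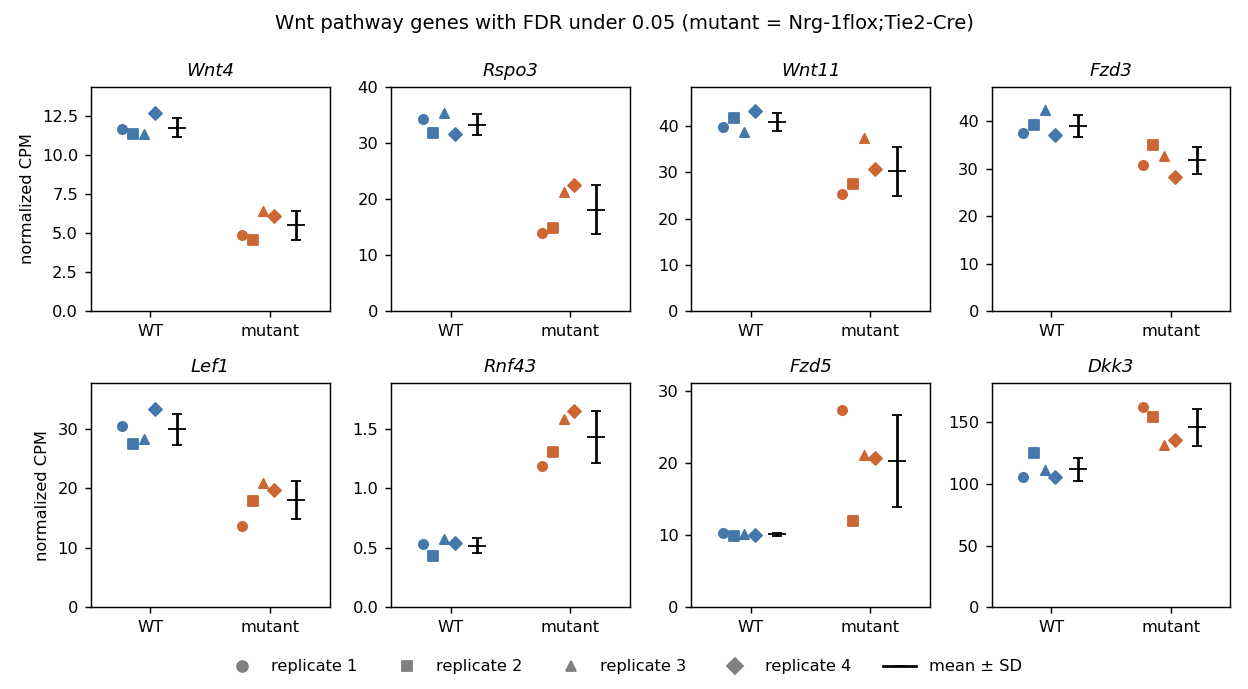
Normalized CPM (y axis, from 0) of the 8 genes with FDR under 0.05 in each WT and mutant sample, with 1 marker shape per replicate number and the mean ± SD beside the points. WT and mutant values do not overlap in any panel, and *Fzd5*, from 11.9 to 27.4 CPM, has the widest spread among the mutants relative to its mean.

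The values of WT and mutant samples did not overlap for all 8 of these genes, nor for *Axin2*, *Tcf7* and *Fzd10*, which did not pass the test. This made 11 genes without overlap among the 36, where 19.0% of all genes tested had none. Of the 11, 8 were lower in the mutants and 3 higher (9.45% and 9.52% of all genes tested). The 3 include *Rnf43*, without which 2 stand against that share.

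Among the ligands, *Wnt4* showed the lowest fold change. *Wnt4* encodes a ligand best known from kidney and ovary development and lies on chromosome 4 (137277489 to 137299726, plus strand, GRCm38). Its level was 11.6, 11.3, 11.3 and 12.6 CPM in the WT samples and 4.83, 4.56, 6.40 and 6.10 CPM in the mutants. All mutants lay below all WT samples, at 0.467 times the WT level (log2 fold change -1.10, standard error 0.13, edgeR adjusted p = 0.00210). The call held in each of the 14 alternative fits, in which the log2 fold change stayed between -1.18 and -1.01.

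*Wnt11*, a ligand of the β-catenin-independent branch needed for outflow tract formation, lies on chromosome 7 (98835112 to 98855195, plus strand). Its level was 39.9, 41.8, 38.8 and 43.3 CPM in the WT samples and 25.4, 27.5, 37.5 and 30.7 CPM in the mutants. The nearest mutant, replicate 3, reached 37.5 CPM against 38.8 CPM in the lowest WT sample, so the groups were separate by a small margin (log2 fold change -0.44, standard error 0.11, edgeR adjusted p = 0.0391). The call was lost without mutant replicate 2 or 4 or any 1 WT replicate (edgeR adjusted p from 0.0825 to 0.116) and with the replicate number as a block (edgeR adjusted p = 0.0723), although the log2 fold change stayed between -0.56 and -0.36.

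The promoters of the 53 genes were searched for the letters CTTTGAT, which Tcf and Lef factors recognise, on either strand, to see whether the genes that fell share them. RefSeq windows of 300 bases (250 before and 50 after the start site, GRCm38.p6) were matched to 34 of the 53 genes by symbol. Of the 34, *Wnt11* and *Wnt5b* held the letters (2 genes), where 4.29% of 27025 genes did. Of the other genes that fell, *Wnt4* and *Lef1* had no match, and *Rspo3* and *Fzd3* were without an entry. The matches are shown 5′ to 3′ on the strand of the gene, with CTTTGAT or its complement ATCAAAG in capitals, for *Wnt11* at chr7:98835051-98835077 (plus strand, 51 bases before the start) and for *Wnt5b* at chr6:119449441-119449467 (minus strand, 71 bases before it).
Wnt11: acgtgggcggATCAAAGcgacggtccg
Wnt5b: gtaagtctctCTTTGATctgctccctg

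The shorter core CTTTG, which is part of the letters above, was found in 13 of the 34 genes and in 57.4% of all genes. The 250 bases before the more upstream of 2 *Wnt11* starts (chr7:98834862-98835111, plus strand) are shown because *Wnt11* fell and is the one such gene with the longer match, while the window of the other start holds no core. The bases shown hold 2 cores, one of them inside the longer match, in capitals as CTTTG or its complement CAAAG, and 70.8% G and C. A match of letters does not show that a factor binds there.
Wnt11: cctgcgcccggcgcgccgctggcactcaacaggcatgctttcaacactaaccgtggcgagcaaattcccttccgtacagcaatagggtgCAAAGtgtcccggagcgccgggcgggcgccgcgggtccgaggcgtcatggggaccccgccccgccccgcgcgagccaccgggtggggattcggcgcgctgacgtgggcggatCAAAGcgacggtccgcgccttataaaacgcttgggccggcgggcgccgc

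The other abundant ligands did not pass the test. *Wnt5a*, the best known ligand of the same branch, had 77.1, 79.3, 61.9 and 73.7 CPM in the WT samples and 69.4, 91.2, 71.3 and 85.7 CPM in the mutants, and the groups overlapped (log2 fold change 0.12). *Wnt2*, a ligand of the second heart field and its derivatives, had 27.0, 20.3, 35.5 and 31.0 CPM in the WT samples and 12.7, 26.9, 23.3 and 16.2 CPM in the mutants. Mutant replicate 1 was lowest and WT replicate 3 highest, and the groups overlapped (log2 fold change -0.52, edgeR adjusted p = 0.208).

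Compared per kb of exon, *Wnt2* (12.6 ± 2.87 CPM per kb in WT; SD, n = 4), *Wnt11* (9.90 ± 0.482) and *Wnt5a* (9.33 ± 0.993) were the highest ligands in WT while *Wnt4* stood at 2.80 ± 0.148. *Wnt11* lay within 1 SD of *Wnt2*, and *Wnt5a* differed from *Wnt11* by less than its own SD. In the mutants, *Wnt5a* was highest (10.1 ± 1.37 CPM per kb), *Wnt2* stood at 8.77 ± 2.88, *Wnt11* at 7.31 ± 1.28 and *Wnt4* at 1.31 ± 0.217. The remaining ligands tested were scarce. *Wnt5b* ranged over 2.43 to 4.05 CPM in WT and 2.71 to 5.21 CPM in the mutants, *Wnt2b* over 2.3 to 4.66 CPM in WT and 4.03 to 6.01 CPM in the mutants and *Wnt9a* over 1.73 to 3.01 CPM in WT and 1.80 to 4.20 CPM in the mutants, with log2 fold changes of 0.39, 0.46 and 0.36 that did not pass.

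*Wnt9b*, a ligand of the endocardium over the forming valves, had 1.68, 2.51, 0.904 and 1.08 CPM in the WT samples and 2.20, 2.90, 2.45 and 4.78 CPM in the mutants. WT replicate 2 was above mutant replicates 1 and 3, and the difference did not pass (log2 fold change 0.99, edgeR adjusted p = 0.123).

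The other 11 ligand genes did not pass the filter. Of these, *Wnt1*, *Wnt3a* and *Wnt10a* had 0 counts in all 8 samples, and *Wnt3*, *Wnt6*, *Wnt7a*, *Wnt7b*, *Wnt8a*, *Wnt8b*, *Wnt10b* and *Wnt16* had at most 38 in the 8 samples together. The highest of these were *Wnt16* (22 counts in the mutants and 16 in WT) and *Wnt6* (21 and 15). The ligands best known for strong canonical signaling, *Wnt1*, *Wnt3*, *Wnt3a* and *Wnt8a*, had from 0 to 3 counts per sample. Their levels were not compared between genotypes.

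**Figure D2:**
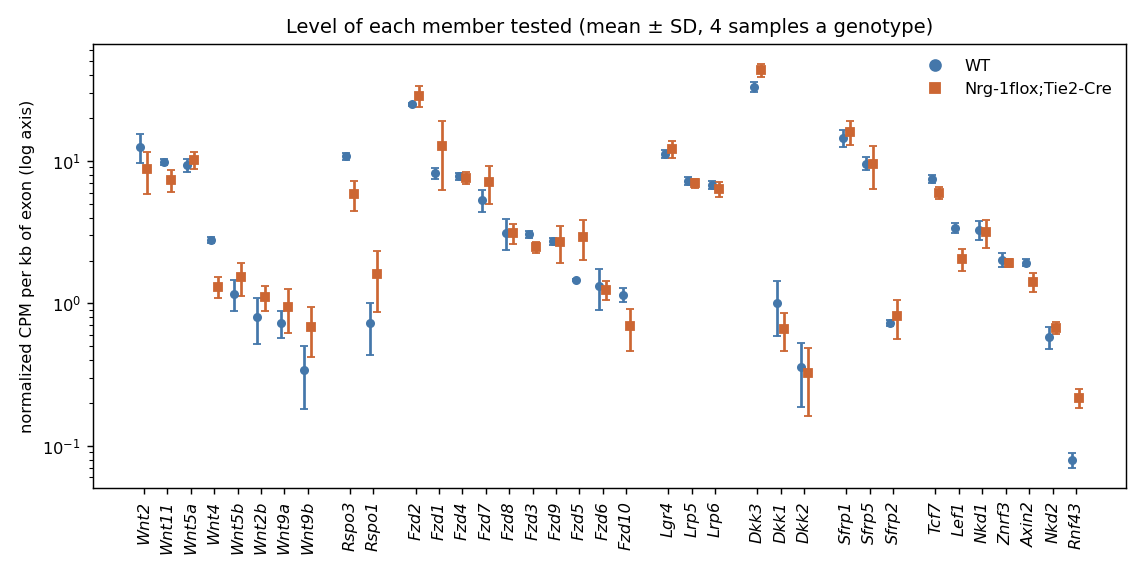
Level of the 36 genes tested in normalized CPM per kb of exon (log axis), as mean ± SD of 4 samples in WT (circles) and the mutants (squares), grouped by role. Among the ligands *Wnt2*, *Wnt11* and *Wnt5a* stand highest in WT, and *Dkk3* is the highest of all 36 genes in both genotypes.

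Among the R-spondins, *Rspo3*, which is needed for vascular development in the mouse embryo, fell. It lies on chromosome 10 (29452416 to 29535867, minus strand), and its level was 34.3, 31.8, 35.3 and 31.6 CPM in the WT samples and 13.9, 14.8, 21.2 and 22.5 CPM in the mutants. Mutant replicates 1 and 2 were lowest, and the highest mutant, at 22.5 CPM, stayed well under the lowest WT sample, at 31.6 CPM. The mutant level was 0.545 times that of WT (log2 fold change -0.88, standard error 0.15, edgeR adjusted p = 0.00728), and the call held in all 14 alternative fits.

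The level of *Rspo1* was 1.91, 1.29, 0.657 and 1.76 CPM in the WT samples and 1.61, 5.0, 3.09 and 2.72 CPM in the mutants. It pointed the other way (log2 fold change 1.14), with mutant replicate 1 inside the WT range, and did not pass (edgeR adjusted p = 0.101), but passed without mutant replicate 1 (1.35, edgeR adjusted p = 0.0223). *Rspo1* reached the filter in 4 mutant and 3 WT samples. *Rspo2* (0 to 33 counts per sample) and *Rspo4* (0 to 3) were not tested. Per kb of exon, *Rspo3* stood at 10.8 ± 0.595 CPM in WT and 5.86 ± 1.42 in the mutants, and *Rspo1* at 0.724 ± 0.290 and 1.6 ± 0.727.

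All 10 Frizzled genes were tested. *Fzd5*, a receptor required for vessel growth in the yolk sac and placenta, was 1.99 times as high in the mutants. It lies on chromosome 1 (64730558 to 64737751, minus strand), with 10.4, 9.96, 10.2 and 10.1 CPM in the WT samples and 27.4, 11.9, 21.1 and 20.7 CPM in the mutants. The WT samples lay close together, whereas mutant replicate 2 was close to them and replicate 1 highest (log2 fold change 0.99, standard error 0.21, edgeR adjusted p = 0.0183). The order of the mutants in *Fzd5* is that of their hemoglobin share at both ends (6.26% in replicate 1 and 1.93% in replicate 2), and the part of blood in this result was not tested. The call was lost without mutant replicate 4 or any 1 WT replicate (edgeR adjusted p from 0.0511 to 0.0619), with a log2 fold change between 0.98 and 1.01 in those fits.

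*Fzd3*, a receptor of planar cell polarity and axon guidance, fell by a smaller margin. It lies on chromosome 14 (65192449 to 65262463, minus strand), and had 37.5, 39.3, 42.3 and 37.0 CPM in the WT samples and 30.9, 35.1, 32.7 and 28.3 CPM in the mutants. The mutants were all below WT (log2 fold change -0.30, standard error 0.079, edgeR adjusted p = 0.0463). The adjusted p lay close to the threshold, and the call was lost in 10 of 14 alternative fits, namely without mutant replicate 3 or 4 or any 1 WT replicate, with DESeq2's size factors, without the filter, without hemoglobin and mitochondrial genes and with the replicate block (edgeR adjusted p from 0.0506 to 0.138). The log2 fold change stayed between -0.34 and -0.24 over the 14 fits.

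*Fzd2*, the most abundant Frizzled gene per kb (25.0 ± 0.666 CPM per kb in WT and 28.7 ± 4.87 in the mutants), had 89.3, 93.2, 93.8 and 89.4 CPM in the WT samples and 79.6, 121, 112 and 109 CPM in the mutants. Mutant replicate 1 was below all WT samples while the other 3 mutants were above them, and the difference did not pass (log2 fold change 0.20), except without replicate 1 (0.32, edgeR adjusted p = 0.00279). *Fzd1* had 33.7, 34.0, 38.8 and 31.4 CPM in the WT samples and 92.8, 46.8, 37.2 and 36.0 CPM in the mutants. Its mean difference (log2 fold change 0.62, edgeR adjusted p = 0.189) was carried mostly by mutant replicate 1, without which it was 0.22.

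*Fzd7* had 23.7, 19.6, 29.8 and 22.8 CPM in the WT samples and 42.1, 38.9, 26.5 and 21.8 CPM in the mutants, again highest in mutant replicates 1 and 2 and overlapping WT (log2 fold change 0.43). *Fzd4*, the receptor of Norrin in retinal vessels, had 50.03, 53.2, 56.7 and 49.7 CPM in the WT samples and 54.9, 56.6, 45.5 and 48.5 CPM in the mutants, and *Fzd8* had 20.5, 24.4, 16.0 and 14.1 CPM in the WT samples and 15.3, 22.2, 19.6 and 17 CPM in the mutants. Both overlapped between genotypes, with log2 fold changes of -0.027 and -0.013. Among the scarcer receptors, *Fzd10* had 4.35, 3.58, 3.45 and 3.58 CPM in the WT samples and 1.70, 3.26, 1.73 and 2.31 CPM in the mutants. It was lower in every mutant than in every WT sample, but did not pass (log2 fold change -0.73, edgeR adjusted p = 0.0821), except without mutant replicate 2 (-0.96, edgeR adjusted p = 0.0219). *Fzd6* ranged over 4.26 to 8.48 CPM in WT and 4.66 to 6.66 CPM in the mutants and *Fzd9* over 5.75 to 6.72 CPM in WT and 4.24 to 8.57 CPM in the mutants, with log2 fold changes of -0.080 and -0.0081.

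The co-receptors *Lrp5* and *Lrp6* and the R-spondin receptor *Lgr4* were abundant and differed little. *Lrp6* had 93.6, 97.5, 96.1 and 85.1 CPM in the WT samples and 103, 83.8, 81.6 and 79.5 CPM in the mutants, *Lrp5* had 71.1, 77.4, 67.9 and 66.3 CPM in the WT samples and 62.4, 66.2, 73.0 and 69.3 CPM in the mutants, and *Lgr4* had 65.2, 72.5, 64.6 and 62.3 CPM in the WT samples and 86.1, 70.9, 65.7 and 64.1 CPM in the mutants. The groups overlapped for each, and the log2 fold changes were -0.10, -0.061 and 0.12. Only *Lrp6* passed in an alternative fit, without mutant replicate 1 (-0.19, edgeR adjusted p = 0.0463).

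**Figure D3:**
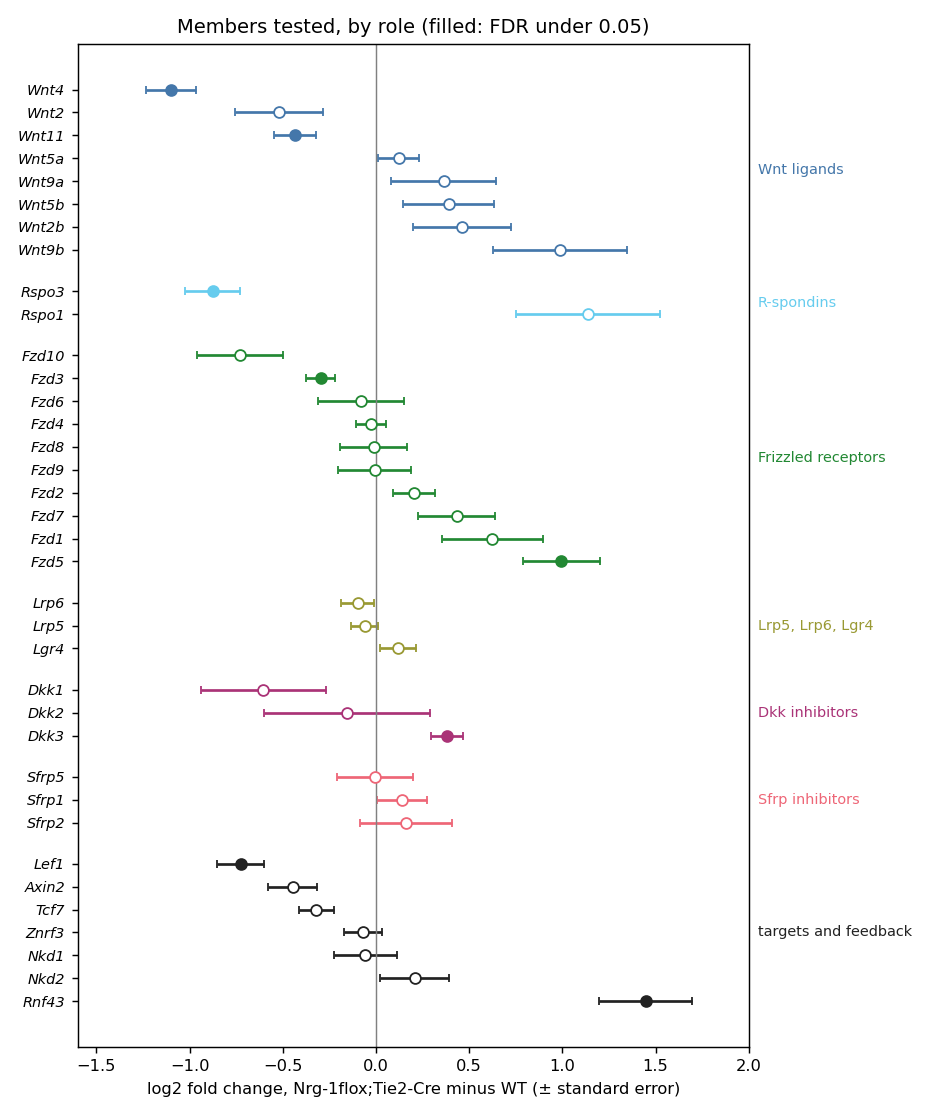
Log2 fold change of the mutants over WT with its standard error (x axis) for the 36 genes tested, grouped by role and filled where FDR was under 0.05. *Wnt4* lies lowest, at -1.10, and *Rnf43* highest, at 1.45, while *Lrp5*, *Lrp6* and *Lgr4* lie within 0.12 of 0.

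Of the 8 secreted inhibitors, 6 were tested and *Dkk3* alone passed. *Dkk3* is a divergent family member that does not act on Lrp5 and Lrp6 as Dkk1 does. It lies on chromosome 7 (112116017 to 112159057, minus strand), and was the most abundant of the 36 genes per kb of exon (33.3 ± 2.73 CPM per kb in WT and 43.4 ± 4.4 in the mutants). Its level was 106, 125, 111 and 106 CPM in the WT samples and 162, 154, 131 and 136 CPM in the mutants, so that the lowest mutant, replicate 3, stood just above the highest WT sample, replicate 2 (log2 fold change 0.38, standard error 0.085, edgeR adjusted p = 0.0246). The call was lost without WT replicate 1, 3 or 4 (edgeR adjusted p from 0.0755 to 0.0883), with a log2 fold change between 0.35 and 0.38 in those fits.

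*Dkk1*, the classical antagonist of Lrp5 and Lrp6 and itself a reported target of the pathway, was scarce, with 21 to 46 counts in WT and 14 to 30 in the mutants, and did not pass (log2 fold change -0.60, edgeR adjusted p = 0.299). *Sfrp1* and *Sfrp5*, which bind Wnt ligands outside the cell, had 67.9, 73.0, 56.5 and 56.7 CPM in the WT samples and 58.4, 88.9, 62.4 and 69.98 CPM in the mutants, and 17.3, 17, 17.5 and 21.1 CPM in the WT samples and 11.7, 25.9, 18.8 and 16.1 CPM in the mutants, respectively. The groups overlapped in each gene, with mutant replicate 2 highest, and the log2 fold changes were 0.14 and -0.0054. *Dkk2* (0.611 to 2.01 CPM in WT and 0.652 to 1.81 CPM in the mutants) and *Sfrp2* (1.49 to 1.65 CPM in WT and 1.24 to 2.45 CPM in the mutants) had log2 fold changes of -0.16 and 0.16 without passing, and *Sfrp4* (3 to 7 counts per sample) and *Dkk4* (0 counts in all samples) were not tested.

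Of the 9 canonical targets, 7 were tested, of which 1 fell and 1 rose. *Lef1*, which encodes a DNA-binding partner of β-catenin and is itself a target, was the one to fall. It lies on chromosome 3 (131110471 to 131224356, plus strand), and its level was 30.5, 27.4, 28.4 and 33.3 CPM in the WT samples and 13.7, 17.8, 20.9 and 19.8 CPM in the mutants. Mutant replicate 1 was lowest, and the highest mutant was below the lowest WT sample. The mutant level was 0.605 times that of WT (log2 fold change -0.73, standard error 0.13, edgeR adjusted p = 0.00837), with the call kept in all 14 alternative fits. The library kit does not mark strand, and the antisense gene *Gm43352*, whose exons overlap *Lef1*, had a median of 11 counts in the mutants and 19.5 in WT against 243 and 391 for *Lef1*.

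RefSeq gives *Lef1* 4 start sites, whose windows of 250 bases hold from 1 to 3 cores (CTTTG on either strand). The bases before the most upstream start (chr3:131110047-131110296, plus strand, GRCm38.p6) are shown because *Lef1* was the target that fell. They hold the core once, in capitals, with 66.4% G and C, and overlap an exon of *Gm43352*.
Lef1: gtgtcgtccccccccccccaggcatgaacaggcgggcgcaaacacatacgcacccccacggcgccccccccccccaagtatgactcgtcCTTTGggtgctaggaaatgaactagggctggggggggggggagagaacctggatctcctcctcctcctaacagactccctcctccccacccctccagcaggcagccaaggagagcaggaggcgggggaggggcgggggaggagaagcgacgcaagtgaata

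*Axin2*, which encodes a scaffold of the complex that breaks down β-catenin and is the most widely used readout of the pathway, pointed the same way. It had 9.85, 10.9, 10.6 and 11.2 CPM in the WT samples and 6.19, 8.69, 8.78 and 7.50 CPM in the mutants. Every mutant was below every WT sample, but the difference did not pass in the fit to all 8 samples (log2 fold change -0.45, standard error 0.13, edgeR adjusted p = 0.0628). It passed with DESeq2 (log2 fold change -0.44, DESeq2 adjusted p = 0.0394) and without mutant replicate 1 (-0.35, edgeR adjusted p = 0.0486), and over the alternative fits the adjusted p ran from 0.0394 to 0.159.

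*Tcf7*, the gene of the Tcf/Lef factor TCF1, had 19.4, 18.0, 20.3 and 20.7 CPM in the WT samples and 14.4, 14.3, 16.5 and 17.5 CPM in the mutants. Here too the groups were separate without passing (log2 fold change -0.32, standard error 0.094, edgeR adjusted p = 0.0652), and the adjusted p ran from 0.0514 to 0.167 over the alternative fits.

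*Rnf43*, the gene of a ubiquitin ligase that removes Frizzled receptors, moved in the other direction. It lies on chromosome 11 (87662722 to 87735539, plus strand), and its counts were 7, 6, 7 and 8 in the WT samples and 14, 18, 22 and 20 in the mutants. Each mutant had at least 14 counts where no WT sample had more than 8, and the normalized level was 1.43 ± 0.221 CPM against 0.520 ± 0.0628 CPM (SD, n = 4; log2 fold change 1.45, standard error 0.25, edgeR adjusted p = 0.00756). *Rnf43* passed the filter through the 4 mutant samples and 0 WT samples, so that its entry into the test rested on its level in the mutants. Without a filter it also passed (edgeR adjusted p = 0.0205), and with at least 10 counts asked of every sample it was not tested.

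*Znrf3*, the gene of the related ubiquitin ligase, had 16.6, 15.5, 13.9 and 18.0 CPM in the WT samples and 14.8, 16.5, 15.5 and 14.2 CPM in the mutants, and the mutants lay inside the WT range (log2 fold change -0.071). *Nkd1* and *Nkd2* encode proteins that bind Dishevelled and dampen the signal. *Nkd1* had 14.4, 18.3, 13.2 and 14.0 CPM in the WT samples and 9.84, 17, 15 and 15.7 CPM in the mutants, with mutant replicate 1 alone below all WT samples (log2 fold change -0.057). *Nkd2* had 2.06, 3.08, 2.96 and 3.11 CPM in the WT samples and 3.48, 3.48, 2.81 and 3.21 CPM in the mutants and overlapped between genotypes (log2 fold change 0.21). *Notum*, which encodes an enzyme that removes the lipid from Wnt ligands, had 10, 10, 5 and 4 counts in WT and 5, 18, 6 and 5 in the mutants. *Lgr5*, a second R-spondin receptor gene, had 5, 3, 4 and 5 counts in WT and 5, 5, 7 and 3 in the mutants. Neither passed the filter.

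**Figure D4:**
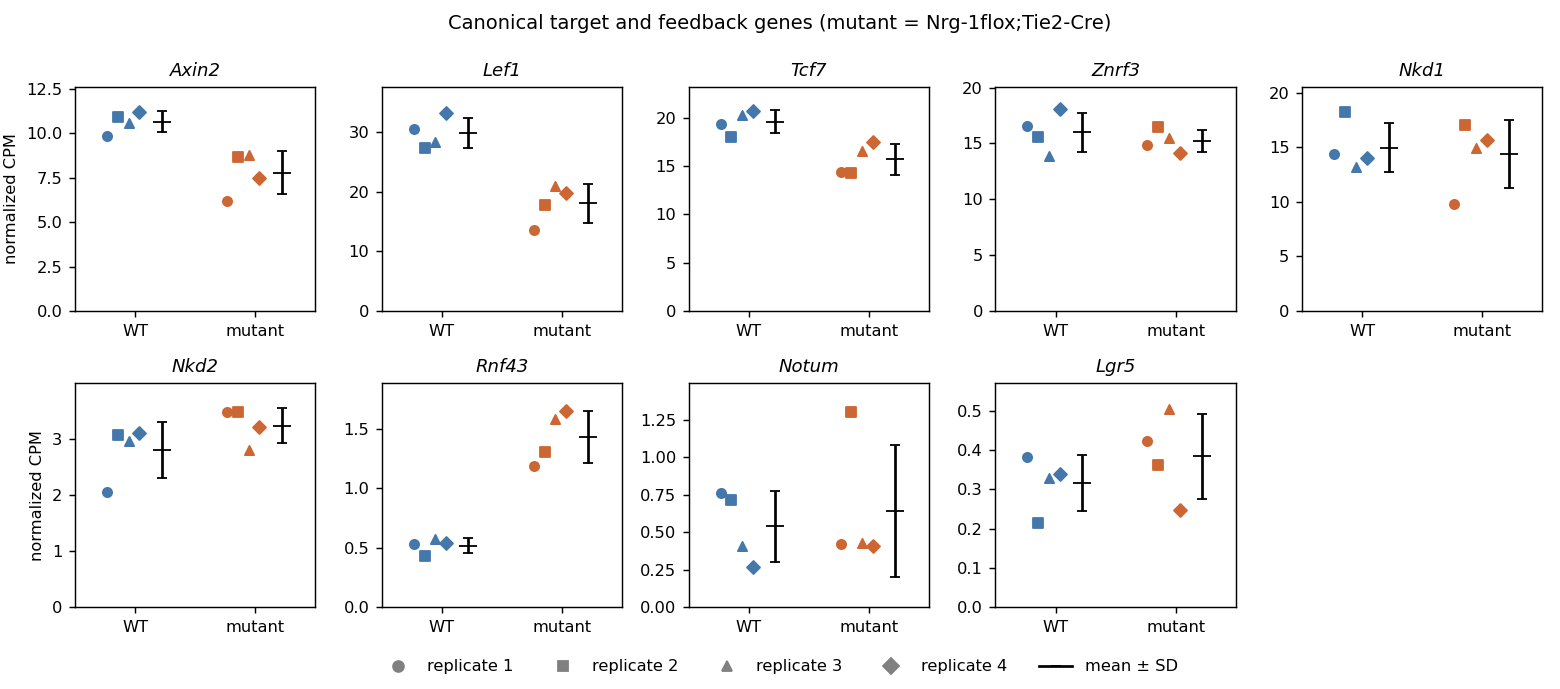
Normalized CPM (y axis, from 0, a scale for each gene) of the 9 canonical target and feedback genes in each sample, with the mean ± SD. *Axin2*, *Lef1* and *Tcf7* are lower in every mutant than in every WT sample, *Rnf43* is higher, and the other 5 overlap.

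Set side by side, 5 of 23 input genes tested changed (1 higher and 4 lower) and 2 of 7 canonical targets (1 higher and 1 lower), where 8.62% of all genes tested did. The target that was higher, *Rnf43*, entered the test only through the mutants, so its count is not to be read against that share, and of the other 6 targets tested 1 changed. The count of input genes that changed was 2 without mutant replicate 4 or any 1 WT replicate, 3 with the replicate block and 8 without mutant replicate 1, where 3.48% to 4.81%, 4.26% and 17.2% of all genes changed. The median log2 fold change was -0.0081 over the input genes, -0.071 over the targets and 0.067 over the 6 secreted inhibitors tested, against -0.0014 over all genes. Among the targets tested, 5 had a negative and 2 a positive log2 fold change, and among the input genes 12 and 11. The median of the targets was -0.20 when at least 10 counts were asked of every sample, which removes *Rnf43*. With no filter, the median was 0.20 over the input genes and -0.0086 over the inhibitors, so that neither kept its sign.

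Other genes of the pathway were taken from 4 lists, whose counts stand beside 5.11% higher and 3.50% lower of all genes tested. Of 16 genes that carry the signal inside the cell, all tested, *Dvl1*, a Dishevelled gene, rose (49.5 ± 1.14 CPM in the mutants and 42.0 ± 0.718 in WT; log2 fold change 0.24, standard error 0.049, edgeR adjusted p = 0.0183) and the others did not pass. *Ctnnb1*, the gene of β-catenin and the most abundant of them, stood at 727 ± 52.3 CPM in the mutants and 818 ± 2.45 in WT (log2 fold change -0.17, edgeR adjusted p = 0.0974). Of 14 genes of secretion and of other receptors, 13 were tested, of which *Vangl1*, a planar polarity gene, rose (log2 fold change 0.28, edgeR adjusted p = 0.0108) and *Ror1*, a receptor of Wnt5a, fell (-0.77, edgeR adjusted p = 0.0131). *Wls*, which encodes the carrier of Wnt ligands to the cell surface, did not pass (log2 fold change -0.079), nor did *Gpc3*, a glypican gene and the most abundant of this list (0.015).

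Of 10 further inhibitors, 6 were tested. *Sost*, the gene of sclerostin, rose from 8.67 ± 2.07 CPM in WT to 14.9 ± 1.94 in the mutants (log2 fold change 0.78, standard error 0.17, edgeR adjusted p = 0.0203), and *Frzb*, a gene related to the Sfrp family, fell from 5.31 ± 0.477 to 3.36 ± 0.619 (log2 fold change -0.65, standard error 0.17, edgeR adjusted p = 0.0390). *Kremen1*, the most abundant per kb, did not pass (log2 fold change -0.017). Of 10 further reported targets, 6 were tested, and 1 rose and 3 fell. *Myc* rose from 20.4 ± 0.509 to 47.3 ± 9.18 CPM (log2 fold change 1.21, standard error 0.13, edgeR adjusted p = 0.00162). Its level was 56.6, 34.7, 49.6 and 48.4 CPM in mutant replicates 1 to 4. Like the hemoglobin share, it was highest in replicate 1 and lowest in replicate 2, and the part of blood in it was not tested. *Ccnd2*, a cyclin gene and the most abundant of this list, fell from 963 ± 17.6 to 666 ± 104 CPM (log2 fold change -0.53, standard error 0.10, edgeR adjusted p = 0.0122), and *Bambi* (-0.42, edgeR adjusted p = 0.00787) and the T-box gene *Tbx3* (-0.72, edgeR adjusted p = 0.0334) fell too. *Sp5*, a target of the pathway in many tissues, did not pass the filter (1 to 9 counts per sample). The genes of this list respond to other signals as well.

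Markers of several cell types moved with genotype beside these results. The erythroid list had a summed level of 6067 to 7321 CPM in WT and 17532 to 62188 CPM in the mutants, with 10 of 10 genes higher. The endocardial and endothelial list had 938 to 1022 CPM in WT and 828 to 893 CPM in the mutants, with *Tek* alone of 9 passing (-0.34, edgeR adjusted p = 0.0310). The outflow and second heart field list, tissues in which several Wnt genes are known to act, had 71.3 to 82.5 CPM in WT and 49.0 to 63.8 CPM in the mutants, and *Fgf10* (-1.07) and *Sema3c* (-0.44) of its 6 genes tested fell. The epicardial and proepicardial list had 135 to 208 CPM in WT and 211 to 350.1 CPM in the mutants, and *Wt1* (0.57) and *Tbx18* (0.50) of 7 genes rose. For each of these 4 lists the summed levels did not overlap between genotypes, and the two-sided exact permutation p was 0.0286, the smallest that 4 against 4 samples allow (0.0571 after adjustment over 8 lists).

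The cardiomyocyte list (exact permutation p = 0.20) and the cushion mesenchyme list, at 125 to 149 CPM in WT and 99 to 135 CPM in the mutants (exact permutation p = 0.171), overlapped between genotypes. So did the neural list, at 15.2 to 21.8 CPM in WT and 15 to 20.1 CPM in the mutants (exact permutation p = 0.80), and the endoderm and liver list, at 1.22 to 3.86 CPM in WT and 0.989 to 6.95 CPM in the mutants (exact permutation p = 0.657), of which no gene passed the filter. The part of the shifted lists in the levels of *Wnt4*, *Rspo3*, *Wnt11*, *Lef1*, *Fzd5*, *Rnf43* and *Myc* was not tested. With hemoglobin and mitochondrial genes removed before scaling, the log2 fold changes were -1.09 for *Wnt4*, -0.87 for *Rspo3*, -0.72 for *Lef1*, 1.46 for *Rnf43* and 1.0 for *Fzd5*, against -1.10, -0.88, -0.73, 1.45 and 0.99 with them. *Wnt11* (-0.43, edgeR adjusted p = 0.0435) and *Dkk3* (0.39) passed in that fit too, and *Fzd3* did not (edgeR adjusted p = 0.0523), with a log2 fold change of -0.29 against -0.30.

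**Figure D5:**
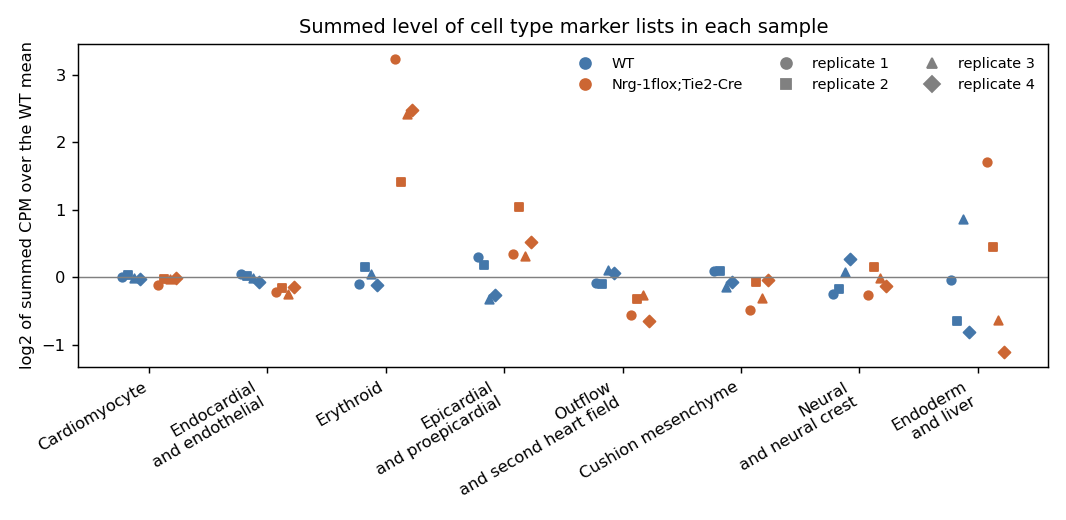
Log2 of the summed CPM of each cell type marker list over its WT mean (y axis) in each sample, WT and mutants in separate colors and replicates by marker shape. The erythroid list and the epicardial and proepicardial list are higher in every mutant than in every WT sample, and the endocardial and outflow lists are lower.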

How the data were processed

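RNA-seq libraries of E9.5 ventricles were made from 200 ng of total RNA with a kit that does not mark strand and sequenced in single reads of 60 bases. The authors deposited expected counts per gene, estimated with RSEM 1.3.1 on GRCm38 after trimming with cutadapt, per the labels, with no scaling for depth or length. The aligner was not given in the sources used here. Of 53465 genes, 53274 were matched to a symbol.

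Expected counts were rounded and tested with edgeR 4.0.16 in R 4.3.3 (TMM, filterByExpr by genotype, quasi-likelihood test, no covariate, Benjamini-Hochberg adjustment over 14451 genes, FDR 0.05). Standard errors are the log2 fold change over the square root of F. Levels between genes are CPM per kb of merged GENCODE M21 exons. Samples are listed from replicate 1 to 4. Marker lists were compared by an exact permutation test over 70 relabellings. Values in every sample are given for genes that passed, for targets and for members with a mean of at least 10 CPM. *Wnt9b*, *Rspo1* and *Fzd10*, and *Wls* and *Sp5* in the other lists, where genes that passed and the most abundant one are named, were added after their values were seen. Genes and lists were chosen with earlier results of these data known. Alternatives were DESeq2 1.42.0, its size factors in edgeR, 2 other count filters, dropping the genes of hemoglobin and of the mitochondrial genome, a block on the replicate number, each of the 8 samples left out in turn, and the shorter motif.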

Additional observations from a re-analysis of the deposited data

Results flagged for a closer look

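In 3 of 72 groups of 4 samples, 1 sample lay far from the other 3, where chance gives about 3.6. Divided by the whole range of its group, the distance of that sample from its neighbour was 0.855 for *Fzd10*, highest in WT replicate 1 at 4.35 CPM, 0.872 for *Sfrp5*, highest in WT replicate 4 at 21.1 CPM, and 0.856 for *Nkd2*, lowest in WT replicate 1 at 2.06 CPM.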

How the results depend on the processing

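*Wnt4*, *Rspo3* and *Lef1* kept their direction and FDR under 0.05 in all 14 alternative fits, *Rnf43* in the 13 that tested it, and *Nrg1* in all 14 (-1.15 to -0.98). Leaving out 1 sample gave from 1 to 5 genes of the set higher, from 3 to 7 lower, from 2 to 8 input genes and from 2 to 3 targets changed, and from 509 to 2523 of all genes. The highest numbers came without mutant replicate 1. Without mutant replicate 4 or any 1 WT replicate, 3 genes were lower and 2 input genes changed, and without WT replicate 1, 3 or 4, 1 gene was higher, *Rnf43*. Without *Rnf43*, which entered through the mutants alone, from 0 to 4 genes were higher. With DESeq2 1780 of all genes passed. The replicate block gave 3 genes lower, 3 input genes and 616 of all genes. Over all genes tested, deviations from the genotype mean were nearly uncorrelated between same-numbered samples (-0.091 to 0.019), as between other pairs (-0.075 to 0.064). Such correlations cannot tell whether same-numbered samples shared a litter or a batch, which the sources used here did not give. At least 10 counts in every sample left 1 target, with a median of -0.20 over the targets, and no filter gave a median of 0.20 over the input genes. Leaving out 1 sample moved the median of the input genes between -0.011 and 0.14 and that of the inhibitors between 0.0042 and 0.19. The core letters CTTTG were in 13 promoters. Of 213 comparisons of a gene with its result over the alternatives that kept all samples, 203 kept direction and call, and of 288 that left out 1 sample, 241. The sign turned only in genes that did not pass: for *Fzd8* with the block (8.59e-04), for *Fzd9* without hemoglobin and mitochondrial genes (0.0016), for *Sfrp5* with DESeq2's size factors (7.6e-05) and without those genes (0.0041), and with 1 sample left out for *Dkk2* (-0.43 to 0.13), *Fzd4* (-0.069 to 0.028), *Fzd6* (-0.23 to 0.091), *Fzd8* (-0.13 to 0.14), *Fzd9* (-0.20 to 0.13), *Sfrp2* (-0.045 to 0.29), *Sfrp5* (-0.22 to 0.15) and *Nkd1* (-0.14 to 0.085). The cause was not tested. *Notum* and *Lgr5* did not pass the filter, and a difference between genotypes was not tested at their depth.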
